A study of Mus musculus with 5 samples.

Results

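The comparison set the array of control effector Th1 cells against the array of naive CD4 T cells, 2 of the 5 arrays of the series, and covered every gene whose probe sets carry 1 gene symbol. There were 34945 such probe sets among 45101, standing for 18193 genes. Both arrays came from spleen CD4 T cells of BALB/c mice. The naive cells are labelled as primary cells, and the effector cells as primary cells that had been cultured. The labels describe Th1 culture with IL-2 at 15 ng/ml and IL-12 at 10 ng/ml lasting 5 days, and attach that text to all 5 samples, so the naive and memory samples carry it too. What "control" stands for is not spelled out beyond the names of the other effector arrays, Rap and TOFA. TOFA inhibits acetyl-CoA carboxylase, an enzyme of fatty acid synthesis, and Rap is not expanded. The labels give no number of animals, no pooling, no sort and no purity for either group. The Rap effector, TOFA effector and memory Th1 arrays are used here for levels only.

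A naive CD4 T cell is small and quiescent. It recirculates between blood and lymphoid tissue and keeps in place the receptors for homing and survival signals. Antigen and costimulation start growth and division, IL-2 acts through STAT5, and IL-12 acts through STAT4 and T-bet to set the Th1 fate, whose products are interferon-gamma and cytotoxic granules. Naive cells taken from a spleen can also carry RNA of other spleen cells such as B cells and myeloid cells.

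Values are signals on an array scaled and quantile normalized across the 5 arrays, and each difference is control effector minus naive on the log2 scale. Signals under 43.4, the 40th percentile, were raised to that floor, so a fold against a gene under it is a lower bound, written "at least". The words higher and lower are used for genes at least 2-fold apart. With 1 array a group there is no p-value and no error between replicates, the number of arrays limits the precision, and the counts describe these arrays. Of 13070 genes compared, 2078 were higher in the control effector array, 15.9%, and 1493 were lower, 11.4%, so 27.3% were past 2-fold either way, with a median over all genes of 0.04. These shares are the background for every list below. List counts run over members above the floor in at least 1 of the 2 arrays, and a member above it in only 1 array can differ in only 1 direction. The 4 CD3 genes, which encode the signalling chains of the T cell receptor, had a median difference of -0.99. Relative to them the split was 6744 higher and 345 lower, so 95.1% of the genes past 2-fold were higher, against 58.2% in the scaling used here and 51.2% with the values as deposited (1878 higher and 1789 lower). In bulk RNA, fewer cells of a type and less RNA per cell cannot be told apart.

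The marker genes of the labels stood as follows. Gzmb, which encodes granzyme B, had a signal of 266 in the naive array and 28439.8 in the control effector array. Tbx21, the gene of T-bet, had 121 and 2036, while Ifng was under the floor in the naive array and at 4108 in the effector array. Klf2, a transcription factor of quiescent T cells, went the other way, from 14239 to 934. Cd4 had 897 and 628, and Cd3d had 21591 and 16076, so the defining T cell genes were well above the floor in both arrays. Cd8a, a marker of CD8 T cells, had 163 and 65.3, and Cd8b1 had 540.3 and 252, so some signal of these genes was present in both. They were 2.49-fold lower and 2.14-fold lower, and 0 of these 2 were lower relative to the CD3 genes. The memory array stood apart from the other 4, with high signals of macrophage and B cell genes, such as 16549.6 for C1qa, which was under the floor elsewhere.

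Markers of B cells were much lower in the control effector array. 1 of 22 members compared was at least 2-fold higher and 18 were lower, with a median of -2.41. Ms4a1, the gene of CD20, had a signal of 2406 in the naive array, 197 in control effector cells, 431 and 224 in the Rap and TOFA arrays and 11124 in the memory array. Cd79b, a signalling chain of the B cell receptor, had 1338, 97.0, 143, 83.6 and 6089 in the same order. The memory array was thus the highest and the 3 cultured arrays were the lowest for both genes. Ighm, the heavy chain of IgM, had 27391 in naive and 1352 in control effector cells, although its other probe sets had a median difference of only -0.49. Cd22, an inhibitory receptor of B cells, was 8.70-fold lower. Pax5, the transcription factor that defines B cells, was near the floor in both arrays at 53.4 and 52.8. The member that was higher was Tnfrsf13b, which encodes the receptor TACI, with 1390.1 and 3644. Summed over the list, and led by Ighm, the signal was 42192 in the naive array, 7952 in control effector cells, 9563 and 6857 in the Rap and TOFA arrays and 78439 in the memory array. Without Ighm the sums were 14801, 6599.7, 7917, 5043 and 50298.

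Plasma cell RNA was led by Jchain, which joins the chains of secreted IgM and IgA. It had 7089.7 in the naive array, was under the floor in control effector cells, at least 163-fold lower, and had 8561 in memory cells. Igha, the heavy chain of IgA, was 5.74-fold lower. For the plasma cell list, 0 of 7 members compared were at least 2-fold higher and 3 were lower, with a median of -0.87, which is above 0 relative to the CD3 genes. Immunoglobulin genes picked by symbol after these values were seen had 11 of 16 lower and 0 higher, with a median of -1.78. Among them Igkv8-30 had 8345 and 92.7, and Ighv14-2 had 1271 against a signal under the floor.

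Neutrophil granule genes were also lower. 1 of 16 members compared was at least 2-fold higher and 10 were lower, with a median of -1.45. S100a8 and S100a9, the subunits of calprotectin, had 2917 and 1693 in the naive array and were both under the floor in control effector cells, which makes them at least 67.3-fold lower and at least 39.0-fold lower. Ngp, a granule protein, was at least 11.7-fold lower, and Mpo, which encodes myeloperoxidase, was at least 4.89-fold lower. Every one of these 4 genes was under the floor in the control effector array. Cxcr2, a chemokine receptor of neutrophils, was the exception with 67.0 and 518. The summed signal of the list was 6659 in the naive array, 894 in control effector cells, 612 and 665 in the Rap and TOFA arrays and 15233 in the memory array.

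Macrophage and monocyte markers differed in part. 1 of 20 members compared was at least 2-fold higher and 7 were lower, with a median of -0.55, which is above 0 relative to the CD3 genes. The complement genes C1qa and C1qb were under the floor in both arrays and at 16549.6 and 12579 in memory cells. Csf1r, the growth factor receptor of macrophages, had 96.3 and 84.0, against 6232 in memory cells. Cd68 had 64.3 and 64.9, against 7705, so both genes were within 2-fold between the naive and control effector arrays. The lower members were lysozyme and phagocyte genes. Lyz2 had 811 and Lyz1 had 2054 in the naive array and both were under the floor in control effector cells, which makes Lyz1 at least 47.3-fold lower. Tyrobp, an adaptor of myeloid and NK receptors, was at least 7.97-fold lower, and Cybb, the phagocyte oxidase subunit, was 5.52-fold lower. Axl, a receptor for dying cells, was at least 11.8-fold higher. The summed signal was 5178 in the naive array, 1583 in control effector cells, 1370 and 1692 in the Rap and TOFA arrays and 280353 in the memory array.

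Antigen presentation through MHC class II, a trait of B cells, dendritic cells and macrophages, was lower for part of its genes. 0 of 9 members compared were at least 2-fold higher and 5 were lower, with a median of -1.72. H2-Aa had 5340.2 and 294, and its other probe sets had a median of -4.70. H2-Ob, a B cell modulator of peptide loading, was 7.80-fold lower, H2-Eb1 was 4.92-fold lower, and Cd74, the invariant chain, was 4.12-fold lower. Cpa3, a mast cell and basophil protease, was 5.02-fold lower. In the erythroid list 1 of 9 members compared was at least 2-fold higher and 3 were lower, with a median of -0.18, which is above 0 relative to the CD3 genes. Its members furthest apart were Car2, carbonic anhydrase of red cells and other cells, 7.31-fold lower, and Epor, the erythropoietin receptor, 3.10-fold higher. In the dendritic cell list 2 of 7 members were lower and 0 higher. The member furthest lower was Ccr9, which is also counted among the homing receptors below. Of the NK cell, platelet and stroma and vessel lists, 2, 6 and 3 members could be compared and none of these was past 2-fold, although 2 platelet members were lower on the values as deposited.

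These other-cell lists covered a small share of the lower genes. Among the 1493 genes lower in control effector cells, 52 were in an other-cell list, of which 21 were B cell or plasma cell genes, 19 macrophage, neutrophil or dendritic cell genes and 5 MHC class II genes. The genes furthest lower were ranked among those with the higher signal at or above 150.5 and all probe sets above the floor going the same way. Predicted genes and the 3 lists not described were left out of the ranking. Ighm, at -4.34, was also left out, as 5 of its 6 other probe sets went the same way. Among the 100 ranked furthest lower, 9 were B cell, plasma cell or immunoglobulin genes, 7 were myeloid, 3 were MHC class II and 81 were in none of these. Among the 20 furthest lower the counts were 3, 3, 0 and 14. The lists hold only well known markers, and genes outside them were not assigned to a cell type.

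**Figure D1:**
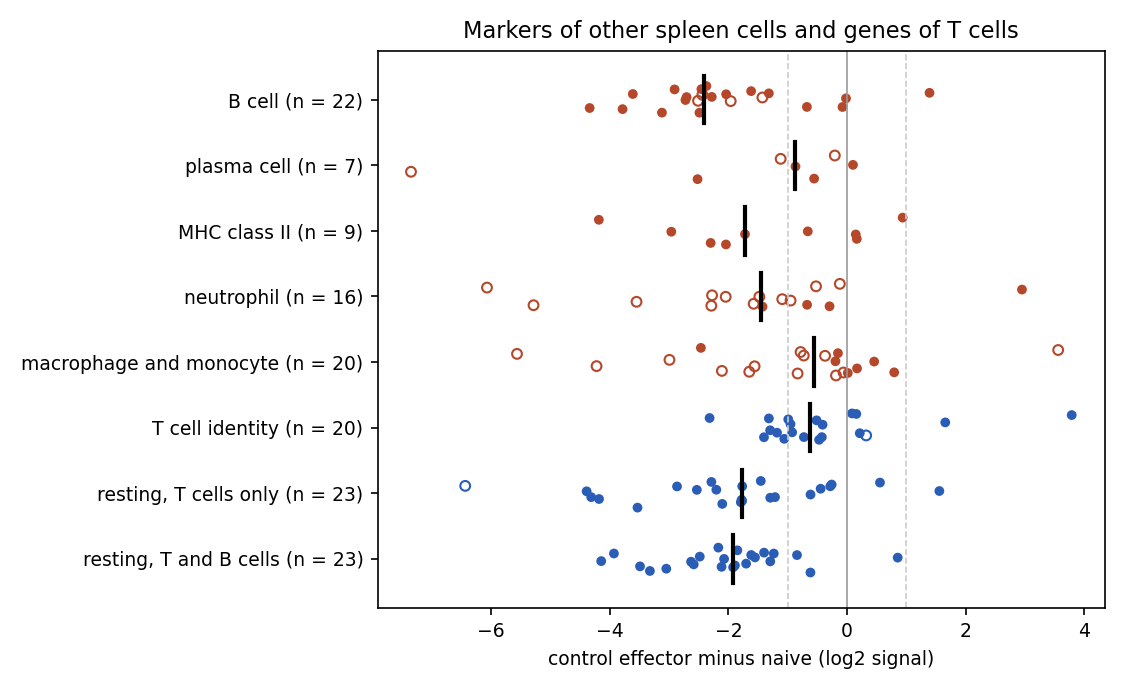
Difference in log2 signal, control effector minus naive, for each member compared of 5 lists of other spleen cells (red) and 3 lists of T cell genes (blue); open points are bounds with 1 array under the floor, black bars are list medians and dashed lines mark 2-fold. The medians were -2.41 for B cell genes, -0.62 for T cell identity genes, which is above 0 relative to the CD3 genes, and -1.78 and -1.92 for the 2 lists of resting genes. The last of these lists holds the label marker Klf2.

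Resting genes of T cells were lower too. A list meant to hold resting genes that T cells express and B cells do not was built to set T cell RNA apart from B cell RNA. Members of this list and of the shared list below were chosen with earlier results of these data known. Expression of these members in B cells and myeloid cells was not tested. 1 of 23 members compared was at least 2-fold higher and 17 were lower, with a median of -1.78. Pdlim4, a cytoskeletal adaptor, had 3762 in naive, was under the floor in control effector cells and had 145, 78.3 and 785 in the Rap, TOFA and memory arrays. Dapl1 had 7154, 359.7, 712, 496 and 459.7 in that order. Tdrp was 18.2-fold lower. Il6ra, the IL-6 receptor, was 21.0-fold lower, with a median of -1.88 over its other probe sets. Lef1, a WNT transcription factor of naive T cells, had 16176 and 4674, and 5507 in memory cells. Arrb1, an arrestin that uncouples receptors, was the exception, 2.94-fold higher. Relative to the CD3 genes 10 members were still lower.

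Resting genes that T and B cells share had much the same counts. 0 of 23 members compared were at least 2-fold higher and 20 were lower, with a median of -1.92. This list holds the label marker Klf2, which is among the lower members, and no count was made without it. Klf3 had 13669 and 773, Ripor2, an inhibitor of RhoA, was 11.2-fold lower, and Tsc22d3, the glucocorticoid-induced leucine zipper, was 10.0-fold lower, though its other probe sets had a median of -0.24. S1pr1, the receptor for leaving lymphoid tissue, was 6.19-fold lower. B cells express these genes as well, and the part of B cell RNA in their differences was not tested. Relative to the CD3 genes 11 members were still lower.

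The memory array gave levels of the same lists, with the naive array shared by both comparisons. Against naive, 12.6% of 13082 genes were at least 2-fold higher in memory cells and 4.14% were lower. The B cell list had a median of 1.44 in memory against naive, with 19 of 22 members higher, and the macrophage and monocyte list had 6.25, with 30 of 31 higher. The list of resting T cell genes had a median of -0.85 and the shared list -0.67. In order of level, the B cell list therefore ran memory, naive, control effector, and the resting lists ran naive, memory, control effector. The macrophage and monocyte list was highest in memory. Between naive and control effector, 12 of its 20 members compared were under 2-fold, and its median is above 0 relative to the CD3 genes. Neighbours in these orders rest on 1 array each.

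**Figure D2:**
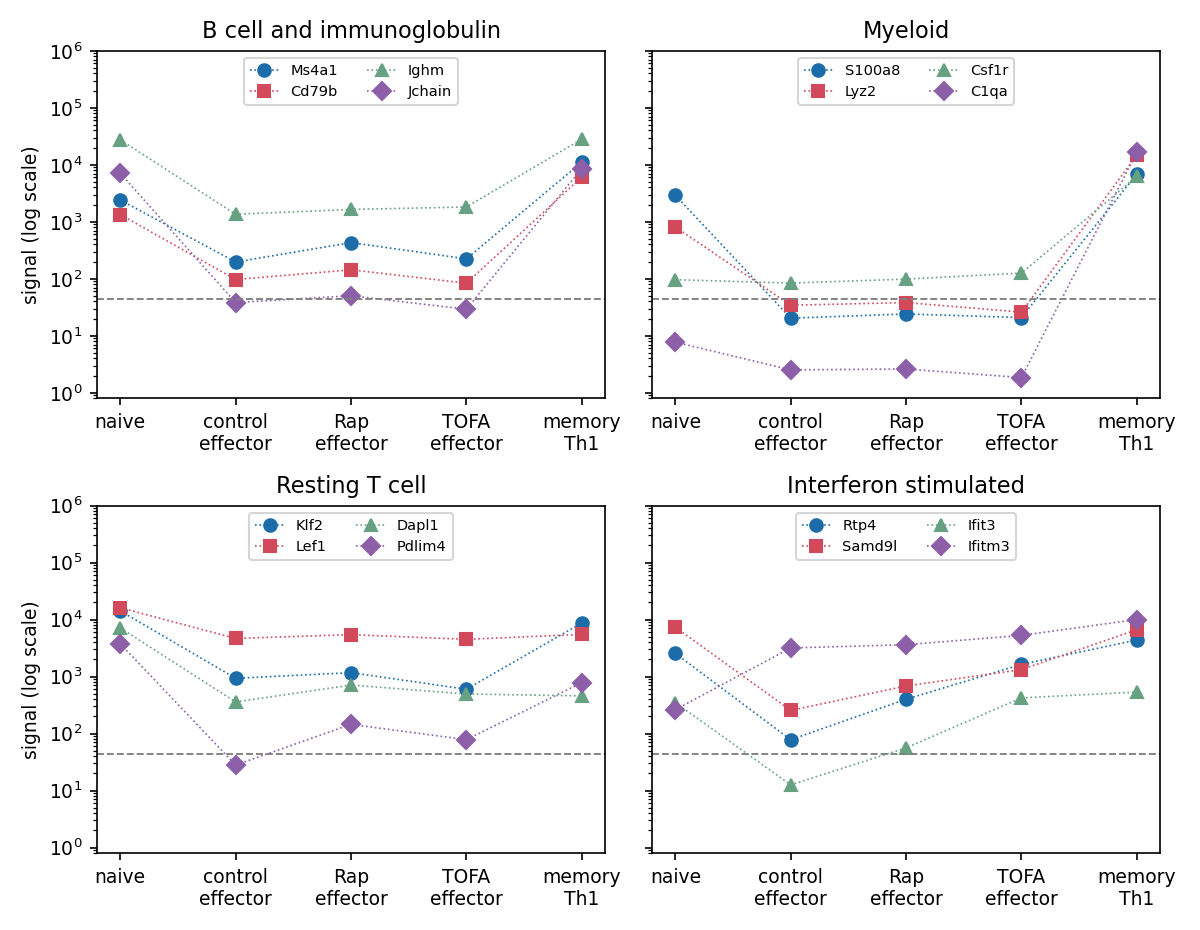
Normalized signal (log scale) of genes in 4 groups in the 5 arrays, with the floor of 43.4 as a dashed line; dotted lines only join the points of a gene. B cell and myeloid genes were highest in the memory array, while Lef1, Dapl1 and Pdlim4 were highest in the naive array and Rtp4 and Samd9l were lowest in the control effector array.

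T cell identity genes differed less than the resting genes. Members of these lists were chosen with earlier results of these data known, so the contrast only describes the lists. In the T cell identity list 2 of 20 members compared were at least 2-fold higher and 6 were lower. The list median was -0.62, which is above 0 relative to the CD3 genes. Cd3e had 2932 and 1407, Cd3g had 15948 and 8393, and Cd247, the zeta chain, had 6655 and 2936. The adhesion receptor Cd2 had 9518 and 10607, and the kinase Zap70 had 2721 and 2883, so these stayed within 2-fold, as Cd3g did, while Cd3e and Cd247 were just past it. Sit1, a negative regulator of receptor signals, was 4.99-fold lower, Cd6 was 2.64-fold lower, Trat1, which stabilizes the receptor complex, was 2.49-fold lower, and Bcl11b, a transcription factor of T cell commitment, was 2.46-fold lower. Icos, an inducible costimulator, was 13.8-fold higher, and Themis, which tunes receptor signals, was 3.15-fold higher.

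Genes of TGF-beta signalling, a pathway that restrains T cell growth, were lower at several steps. 4 of 24 members compared were at least 2-fold higher and 10 were lower, with a median of -0.78, which is above 0 relative to the CD3 genes. Tgfbr2, the ligand-binding receptor, had 10184 and 1976, but its other probe sets had a median of -0.50. The signal transducers Smad4 and Smad5 were 3.76-fold lower and 4.54-fold lower, and the inhibitory Smad7 was 5.52-fold lower. The ligand Tgfb1 had 216 and 538. Bmpr1a, a BMP receptor, was 6.75-fold higher, and Ltbp3, which holds latent TGF-beta in the matrix, was 7.97-fold higher. Among NOTCH and WNT genes 5 of 30 members compared were at least 2-fold higher and 7 were lower, with a median of -0.42, which is above 0 relative to the CD3 genes. Dtx1, a NOTCH target linked to T cell anergy, had 5809.8 in naive and 152 in control effector cells, 98.0 and 68.6 in Rap and TOFA effector cells and 5079 in memory cells. The corepressor Tle4 was 7.89-fold lower, the WNT target Axin2 was 5.38-fold lower, and Rbpj, the DNA-binding partner of NOTCH, was 4.24-fold higher.

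Receptor-proximal signalling genes leaned lower. 4 of 37 members compared were at least 2-fold higher and 11 were lower, with a median of -0.65, which is above 0 relative to the CD3 genes. Dgka, a kinase that removes diacylglycerol and dampens receptor signals, had 18265 and 3156. Prkcq, the protein kinase C of the T cell synapse, was 4.23-fold lower, and Pag1, an adaptor for the inhibitory kinase Csk, was 5.14-fold lower with a median of -0.24 over its other probe sets. Syk, a kinase used mostly by B cells and myeloid cells, was 4.79-fold lower. Sh2d1a, the adaptor SAP, was 2.20-fold higher, and Dok1 was 3.26-fold higher.

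The list of immediate early genes also holds other transcription factors, such as Batf3 and Irf4. Irf4 is counted again in the list of helper T cell fates. Members of the immediate early list split into a group at high naive signal and a group at high effector signal. 8 of 28 members compared were at least 2-fold higher and 13 were lower, with a median of -0.64, which is above 0 relative to the CD3 genes. Egr1 had 4383 in naive and 86.8 in control effector cells, with 351, 966 and 2683 in the Rap, TOFA and memory arrays. Egr2 was at least 11.7-fold lower and Fos was 6.71-fold lower. Egr3 was 11.3-fold lower, but its only other probe set went the opposite way, at 0.76. Ier3, an inhibitor of cell death, was at least 149.7-fold higher, Batf3 was 43.2-fold higher, Irf4 was 22.9-fold higher, and Atf3 was 9.99-fold higher.

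Feedback genes of kinases and G proteins were mixed. 8 of 21 members compared were at least 2-fold higher and 5 were lower, with a median of 0.24. Dusp2, a nuclear MAP kinase phosphatase, had 5603 and 391, while Dusp4 had 264 and 1729. Rgs1, which blunts chemokine receptor signals, was 11.3-fold higher, and Rgs2 was 4.80-fold lower. Among cytokine feedback genes 6 of 20 members compared were at least 2-fold higher and 2 were lower, with a median of -0.16, which is above 0 relative to the CD3 genes. Cish was 4.30-fold higher, Pim2 was 4.58-fold higher and Socs1 was 3.09-fold higher, all targets of STAT5. Jak1, the kinase shared by many cytokine receptors, was 3.07-fold lower, with 12493 and 4069.

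Among interferon-stimulated genes, which encode antiviral proteins, 4 of 35 members compared were at least 2-fold higher and 16 were lower, with a median of -0.82, which is above 0 relative to the CD3 genes. The share lower over all genes was 11.4%. Rtp4, a chaperone of receptors, had 2561 in the naive array, 78.1 in control effector cells, 401 and 1641 in the Rap and TOFA arrays and 4385 in the memory array. Samd9l had 7359, 256, 686, 1329 and 6652 in that order. Ifit3, which binds viral RNA complexes, had 349.5 in naive and was under the floor in control effector cells, with 424 in TOFA effector cells. The control effector array was the lowest of the 5 for Rtp4 and Samd9l. In the TOFA array Ms4a1 had 224 and Lyz2 was under the floor. The part of B cell and myeloid RNA in the lower signals of these genes was not tested. Ifitm3, which blocks virus entry, went the other way with 264 and 3184. Eif2ak2, the RNA-sensing kinase PKR, was 4.45-fold higher, Dhx58 was 3.71-fold higher and Isg20 was 2.20-fold higher. Cmpk2 was 7.84-fold lower, but its other probe sets had a median of 0.62.

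The promoters of Ifit3, on the lower side, and Ifitm3, on the higher side, are shown because both hold the interferon-stimulated response element, a motif known from promoters that interferon induces. They run from 250 bases before to 50 bases after the start of the gene in RefSeq on build GRCm38.p6, whose reference strain is not BALB/c, and are written on the strand of the gene. Capitals mark matches, on either strand, to GAAA, any 2 bases and GAAA again, and no matches overlap in the promoters printed. Ifit3 lies at chr19:34583279-34583578 on the plus strand and Ifitm3 at chr7:141010695-141010994 on the minus strand, with 2 matches each. The Ifit3 matches begin at -156 and -122 from the gene start, before it. The Ifitm3 matches begin at 2 and 19, after the gene start.
Ifit3: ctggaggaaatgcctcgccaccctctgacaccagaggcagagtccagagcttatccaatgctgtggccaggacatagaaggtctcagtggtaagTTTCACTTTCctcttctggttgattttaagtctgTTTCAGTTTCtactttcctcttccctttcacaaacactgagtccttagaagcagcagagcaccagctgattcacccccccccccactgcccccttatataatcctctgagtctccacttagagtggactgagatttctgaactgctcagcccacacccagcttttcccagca
Ifitm3: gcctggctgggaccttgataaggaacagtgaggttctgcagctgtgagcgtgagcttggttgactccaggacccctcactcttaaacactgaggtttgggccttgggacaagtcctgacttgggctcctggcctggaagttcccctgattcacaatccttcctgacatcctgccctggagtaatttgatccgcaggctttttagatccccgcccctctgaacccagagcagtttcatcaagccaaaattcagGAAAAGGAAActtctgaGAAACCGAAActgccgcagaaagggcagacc
This motif is in 3.443% of 32851 promoters of the same length. It was in 12 of the 25 interferon-stimulated genes compared that have a promoter in the table. It was in 4 of 12 lower genes, 2 of 3 higher genes and 6 of 10 genes under 2-fold, so the motif was in genes of all 3 kinds.

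Lower members were also found in the Schlafen and GIMAP families. In the Schlafen family, which has been tied to T cell quiescence, 0 of 8 members compared were at least 2-fold higher and 5 were lower, with a median of -2.10. Slfn2, whose loss breaks quiescence in mice, had 10928 and 1954, Slfn8 had 3718 and 466, and Slfn5 was 19.8-fold lower. Slfn1 was 4.33-fold lower. In the GIMAP family of GTPases, needed for lymphocyte survival, 0 of 8 members compared were at least 2-fold higher and 4 were lower, with a median of -1.02. Gimap6 had 15290.5 and 2620.2, and Gimap8 had 19516 and 7868. B cells express members of both families, and the part of B cell RNA in these differences was not tested. Among p200 DNA sensors 2 of 6 members compared were at least 2-fold higher and 3 were lower, with a median of -1.40. Ifi209 had 6550.2 and 597 and Mndal was 4.17-fold lower, while Ifi202b was at least 17.9-fold higher and Aim2 was 5.04-fold higher. Members of this family are near copies of each other, so a probe set may match more than 1 of them. Guanylate binding and immunity-related GTPases, which answer to interferon-gamma, had 0 of 9 higher and 1 lower, Ifi47 with 14423 and 7051. MHC class I and antigen processing genes had 0 of 17 higher and 2 lower, H2-T24 and Tapbp, with -1.01 and -1.07 on the log2 scale. For both groups the share lower was near the 11.4% of all genes.

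Most compared genes of the Th1 fate were higher. 9 of 13 members compared were at least 2-fold higher and 1 was lower, with a median of 1.96. This list holds the label markers Ifng and Tbx21, and without them 7 of 11 members were higher and 1 lower, with a median of 1.78. Bhlhe40, which keeps Th1 cytokine output up, had 61.8 and 5248, and Il12rb1, the shared IL-12 receptor chain, was at least 15.3-fold higher. Ifngr2, the signalling chain of the interferon-gamma receptor, was lower, with 1180.5 and 125, and 202 and 216 in Rap and TOFA effector cells. Cytotoxic granule genes went both ways. 4 of 17 members compared were at least 2-fold higher and 2 were lower, with a median of -0.10, which is above 0 relative to the CD3 genes. Without Gzmb, 3 of 16 were higher and 2 lower, with a median of -0.16. Serpinb6b, a serpin of the cytosol, was 6.57-fold higher and Nkg7 was 2.88-fold higher. Gzma, which encodes granzyme A, had 845 and 235, and Prf1, the gene of perforin, was 3.58-fold lower with a median of 0.08 over its other probe sets. The part of CD8 T cell and NK cell RNA in the differences of Gzma and Prf1 was not tested.

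Cytokine genes above the floor were mostly higher. 9 of 13 members compared were at least 2-fold higher and 1 was lower, with a median of 1.80. There were 18 on the array. Lif, a cytokine of the IL-6 family, was at least 66.4-fold higher with a signal of 2881. Ebi3, a subunit shared by IL-27 and IL-35, had 80.8 and 1323, Il24 had 62.9 and 869.6, and Il10, a cytokine that limits inflammation, was at least 4.83-fold higher. Il16, whose precursor is a resting lymphocyte protein, was 2.61-fold lower. Of the chemokines only Ccl5 is named here as lower, 2.64-fold lower, in a list where 1 of 9 members compared was at least 2-fold higher and 1 was lower, with a median of -0.32, which is above 0 relative to the CD3 genes. The part of CD8 T cell and NK cell RNA in the difference of Ccl5 was not tested.

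Receptors for cytokines went both ways. 8 of 23 members compared were at least 2-fold higher and 7 were lower, with a median of -0.14, which is above 0 relative to the CD3 genes. Il2rb, the IL-2 receptor chain that signals, had 385 and 3375, Il2ra was 11.2-fold higher, and Il18rap, an IL-18 receptor chain, was 4.55-fold higher. Il17ra had 6196 and 1397, and Il6st, the shared chain gp130, had 3199 and 744. Both chains of the IL-6 receptor, Il6ra and Il6st, were therefore lower. In the TNF family 8 of 24 members compared were at least 2-fold higher and 2 were lower, with a median of 0.62. Tnfrsf4, the costimulator OX40, had 712 and 8439, Lta, the gene of lymphotoxin alpha, was 26.3-fold higher, Tnfrsf9, the costimulator 4-1BB, was 7.80-fold higher, and its ligand Tnfsf9 was 7.52-fold higher. Cd27 had 5661 and 1159.5, and Tnfrsf14 was 7.86-fold lower. CD28 family members and inhibitory receptors went both ways too, as 8 of 24 members compared were at least 2-fold higher and 4 were lower, with a median of -0.20, which is above 0 relative to the CD3 genes. Slamf7 was 17.7-fold higher, Ctla4, the inhibitory CD28 homologue, was 4.64-fold higher, and Lag3, which binds MHC class II, was at least 5.00-fold higher. Cd96, a receptor for nectins, had 3991 and 419.6, and Slamf6 was 4.94-fold lower.

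Genes that place a T cell in tissue differed widely. For chemokine and lipid homing receptors, 5 of 21 members compared were at least 2-fold higher and 9 were lower, with a median of -0.83, which is above 0 relative to the CD3 genes. Ltb4r1, the leukotriene B4 receptor, was at least 22.5-fold higher, P2ry14 was at least 5.91-fold higher, Cxcr3, the Th1 chemokine receptor, was 3.88-fold higher, and Gpr171 was 2.45-fold higher. Ccr7, the lymph node homing receptor, had 10056, 2712 and 3604 in naive, control effector and memory cells. Ccr6 was 3.43-fold lower and the gut homing receptor Ccr9 was at least 9.09-fold lower, with its other probe sets at a median of -0.48. B cells express Ccr6, and the part of B cell RNA in its difference was not tested. Ccr9 is also in the dendritic cell list, and the part of dendritic cell RNA in its difference was not tested. Among adhesion genes 3 of 21 members compared were at least 2-fold higher and 8 were lower, with a median of -0.47, which is above 0 relative to the CD3 genes. Itga4, the alpha4 integrin chain, had 3659 and 358, Adgre5, an adhesion receptor of leukocytes, had 10287 and 1466, L1cam was 5.94-fold lower and Itgb3 was 5.51-fold lower. Alcam, a ligand of Cd6, was 6.67-fold higher and Itgav was 2.72-fold higher.

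Glycan enzymes build the sugars that selectins and siglecs bind. 7 of 28 members compared were at least 2-fold higher and 6 were lower, with a median of -0.02, which is above 0 relative to the CD3 genes. St8sia6, a sialyltransferase, had 8101 in the naive array, 223 in control effector cells, 194 and 225 in the Rap and TOFA arrays and 1583 in the memory array, so the naive array was far above the others. St3gal6 was 6.80-fold lower, Galnt10 was 6.25-fold lower, and Mgat5, which branches N-glycans, was 4.65-fold lower. Fut7, the fucosyltransferase of selectin ligands, was 4.80-fold higher, St3gal4 was 3.65-fold higher and Galnt3 was at least 9.45-fold higher.

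Membrane-binding and calcium-binding proteins were among the higher lists. 10 of 22 members compared were at least 2-fold higher and 1 was lower, with a median of 0.89. S100a8 and S100a9, also calcium-binding proteins, were placed in the neutrophil list and are not counted here. They were at least 67.3-fold lower and at least 39.0-fold lower. Anxa2, an annexin of the inner membrane, had 602 and 17963, and Anxa4 was 7.63-fold higher. Lgals3, the gene of galectin 3, was 19.4-fold higher, and S100a1 was at least 11.4-fold higher. Among the 14 serpins on the array, inhibitors of proteases, 6 were higher and 1 lower, while 6 were under the floor in both arrays. Serpinf1 was at least 22.2-fold higher, Serpinb5 was at least 8.78-fold higher, and Serpinb1a was 5.48-fold higher with a median of 0.23 over its other probe sets. The lower member was Serpini1, 5.60-fold lower. Cathepsins and cystatins, the lysosomal proteases and their inhibitors, showed no common direction, as 4 of 17 members compared were at least 2-fold higher and 6 were lower, with a median of -0.68, which is above 0 relative to the CD3 genes. Cst7, which encodes cystatin F, was 4.66-fold higher, and Ctsz was 2.38-fold higher. Ctsh and Lgmn, proteases that B cells and macrophages also express, were 5.28-fold lower and at least 3.73-fold lower, and the part of those cells was not tested.

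Transcription factors of helper T cell fates had members well past 2-fold in both directions. 17 of 38 members compared were at least 2-fold higher and 9 were lower, with a median of 0.63. The label marker Tbx21 is among the higher members, and no count was made without it. Nfil3 was at least 132-fold higher with a signal of 5746. Sox4, a factor of the TGF-beta response, had 2458 and 145, Tox had 1072 and 230.4, and Foxp3, which defines regulatory T cells, had 275 and 52.6. Ahr was at least 4.07-fold lower, with its other probe sets at a median of 0.27. In the circadian clock list 5 of 19 members compared were at least 2-fold higher and 3 were lower, with a median of 0.14, which is below 0 on the values as deposited. Nr1d2, a repressor of the clock, had 3009 and 312, and Arntl and Cry2 were 2.29-fold lower and 2.42-fold lower. Dbp, a clock output, was 3.71-fold higher and Ciart was 3.79-fold higher.

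**Figure D3:**
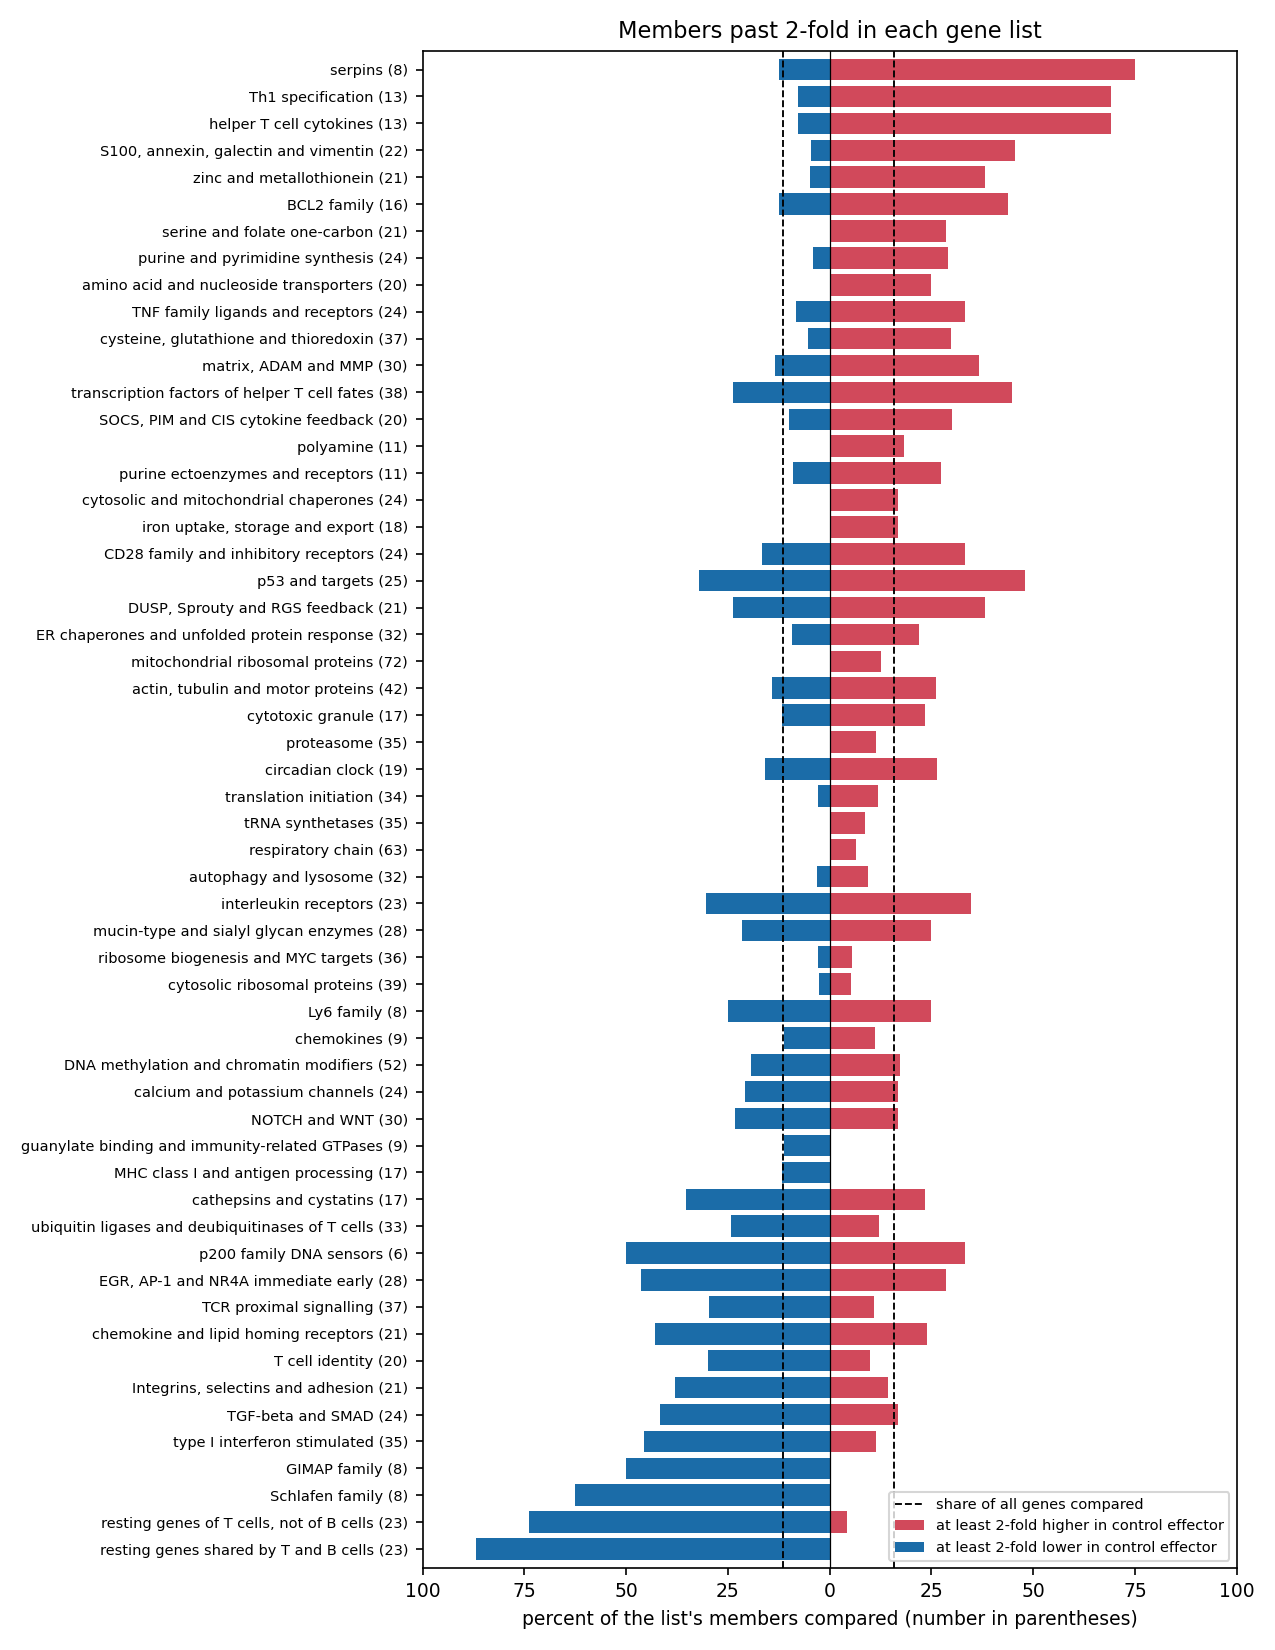
Percent of members compared in each T cell or other functional list that were at least 2-fold higher (red, right) or lower (blue, left) in control effector cells, ordered by the difference of both shares; dashed lines mark 15.9% and 11.4%, the shares of all genes. Members under the floor in both arrays are left out, which raises the shares of lists with many of them, such as the serpins. In the 2 lists of resting genes 17 of 23 and 20 of 23 members were lower. The latter list holds the label marker Klf2.

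Metal handling genes held some of the largest differences. 8 of 21 members compared were at least 2-fold higher and 1 was lower, with a median of 0.07. Mt1, a metallothionein that binds zinc and copper, had 114 in the naive array, 12128 in control effector cells, 3044 and 5778 in the Rap and TOFA arrays and 1007 in the memory array. Mt2 had 139, 6765, 1731, 4442 and 100.2 in that order. All 3 cultured arrays were above the naive array for both genes. The other probe set of Mt1 had a difference of 0.83, against 6.73 on the brightest. Slc39a8, a zinc importer, was 9.75-fold higher, and Slc39a6 was 2.57-fold higher. Slc30a1, the zinc exporter of the cell surface, was lower with 1124 and 150.1. Other zinc transporters of the list went either way or were within 2-fold, such as the importer Slc39a7 with 2558 and 1668 and Slc30a4, of the exporter family, with 391 and 995, the last chosen after its values were seen.

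The promoters of Mt1 and Mt2 are shown because both hold matches to TGCNCNC. This is a loose form of the metal response element, the site of the zinc-sensing factor MTF1, so a match need not be such a site. Both promoters are RefSeq sequences of GRCm38.p6 from 250 bases before to 50 bases after the gene start. Matches to TGCNCNC on either strand are in capitals, with no overlaps between them. Mt1 lies at chr8:94178839-94179138 and Mt2 at chr8:94172368-94172667, both on the plus strand.
Mt1: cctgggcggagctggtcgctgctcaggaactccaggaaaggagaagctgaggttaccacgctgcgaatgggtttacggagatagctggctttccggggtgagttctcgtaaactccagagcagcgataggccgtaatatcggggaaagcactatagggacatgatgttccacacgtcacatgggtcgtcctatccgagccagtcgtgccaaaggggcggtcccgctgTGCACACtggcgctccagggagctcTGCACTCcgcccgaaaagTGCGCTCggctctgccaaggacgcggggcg
Mt2: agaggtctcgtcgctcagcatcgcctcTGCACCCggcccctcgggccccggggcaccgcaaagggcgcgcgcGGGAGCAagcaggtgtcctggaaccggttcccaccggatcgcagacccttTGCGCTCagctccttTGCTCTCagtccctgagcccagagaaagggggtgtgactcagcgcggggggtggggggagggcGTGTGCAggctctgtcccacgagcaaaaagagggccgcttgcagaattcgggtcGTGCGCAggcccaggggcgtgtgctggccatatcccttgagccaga
Mt1 had 3 matches, beginning at -23, 2 and 20 from the gene start, and Mt2 had 6, beginning between -223 and 4. Among all 32851 promoters of this length, 7.099% had at least 3 matches and 0.2253% at least 6, while 51.03% had at least 1, so a single match is common. In the metal list, 15 of the 18 genes compared that have a promoter here had at least 1 match. These were 5 of 6 higher genes, 9 of 11 genes under 2-fold and the 1 lower gene, Slc30a1, so matches were in genes of all 3 kinds.

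Genes of thiol redox balance leaned higher. 11 of 37 members compared were at least 2-fold higher and 2 were lower, with a median of 0.58. Gstt1, a glutathione transferase, was at least 14.3-fold higher, Gstt2 had 423 and 2623, and Prdx4, a peroxiredoxin of the endoplasmic reticulum, was 4.91-fold higher. Txnip, which inhibits thioredoxin and glucose uptake, was lower with 22256 and 3709. In the iron list 3 of 18 were higher and 0 lower. Tfrc, the transferrin receptor, had 1744 and 13308, and Hmox1, which breaks down heme, was 3.41-fold higher.

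**Figure D4:**
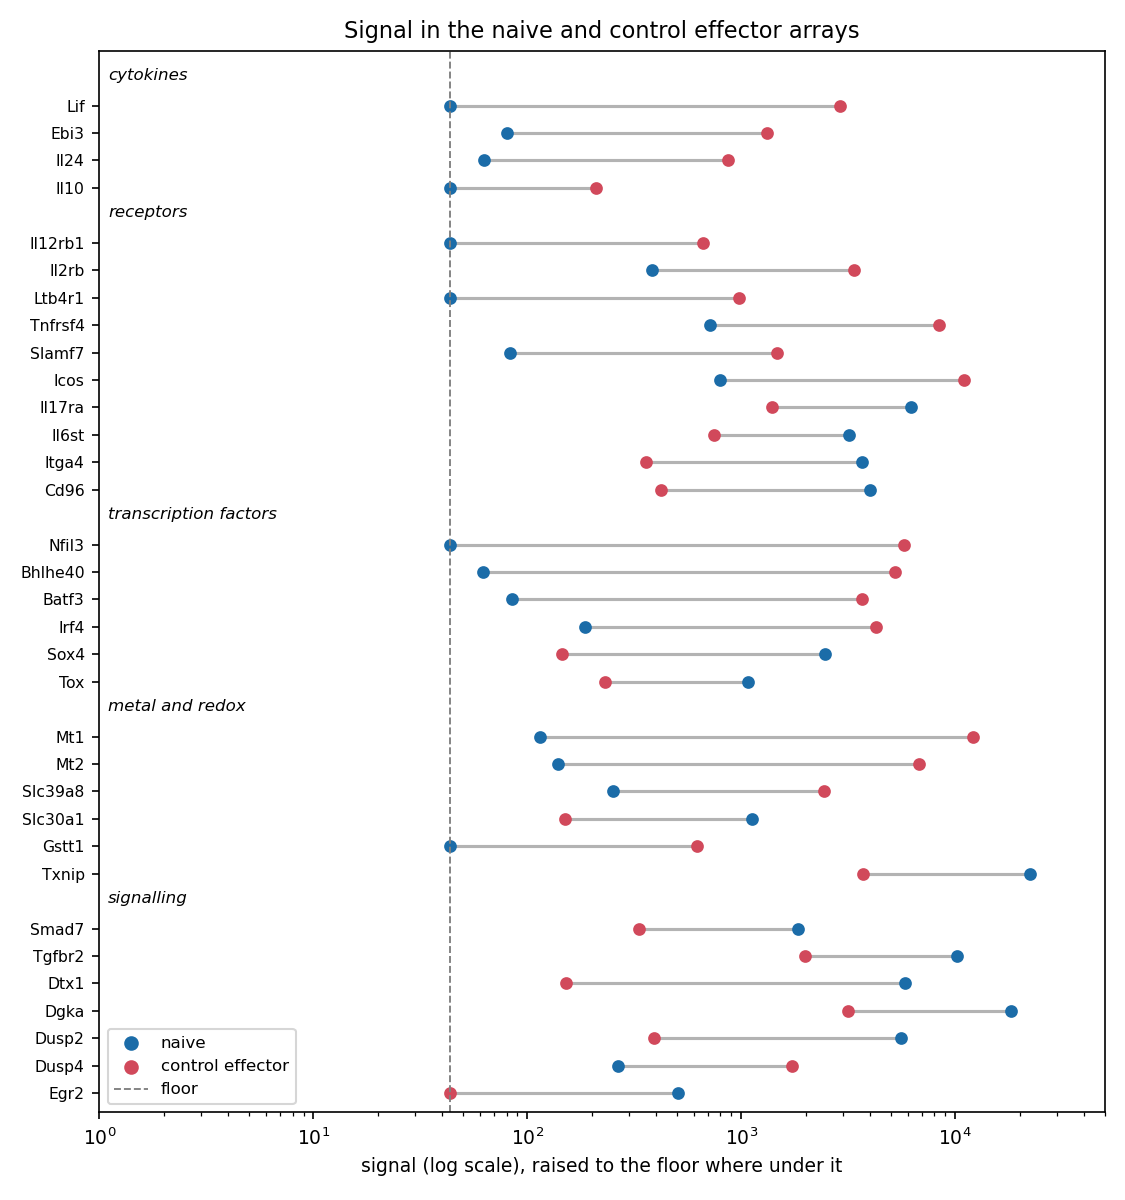
Normalized signal (log scale) of genes named in the text in the naive (blue) and control effector (red) arrays, with signals under the floor of 43.4 (dashed line) drawn at the floor. Mt1 ran from 114 in naive to 12128 in control effector cells and Bhlhe40 from 61.8 to 5248, while Dtx1 ran from 5809.8 down to 152 and Itga4 from 3659 to 358.

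Ribosomal protein, proteasome, tRNA synthetase and translation initiation genes were mostly within 2-fold. Cytosolic ribosomal proteins had 2 of 39 higher and 1 lower, with a median of -0.01, which is above 0 relative to the CD3 genes. Mitochondrial ribosomal proteins had 9 of 72 higher and 0 lower, with a median of 0.48. Differences above 0 were found for 65 of these 72, beside 6791 of all 13070 genes compared. Mrpl45 had 584 and 2335 and Mrpl14 was 2.46-fold higher. In the proteasome 4 of 35 members compared were at least 2-fold higher and 0 were lower, with a median of 0.49 and 31 members above 0. Furthest higher was the activator Psme3, 2.99-fold higher. Aminoacyl tRNA synthetases had 3 of 35 higher and 0 lower, among them Vars, 3.38-fold higher. In the translation initiation list 4 of 34 members compared were at least 2-fold higher and 1 was lower, with a median of 0.25. Eif4ebp1, a brake on cap-dependent translation, had 416 and 5845, and Pdcd4, another brake, had 16289 and 6032. Amino acid and nucleoside transporters had 5 of 20 higher and 0 lower, with Slc7a3 4.26-fold higher and the large neutral carrier Slc7a5 2.57-fold higher. Serine and folate one-carbon genes had 6 of 21 higher and 0 lower, led by Psat1 of serine synthesis, 7.65-fold higher. Shares higher in the transporter and one-carbon lists were 25% and 28.6%, against 15.9% of all genes. Odc1, the first enzyme of polyamine synthesis, was 7.68-fold higher, and Smox, which oxidizes spermine, was 4.56-fold higher.

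Secretory pathway genes went both ways. 7 of 32 members compared were at least 2-fold higher and 3 were lower, with a median of 0.33. Ero1a, which forms disulfides, was 13.7-fold higher, Sdf2l1 was 6.33-fold higher, P4hb, a disulfide isomerase, was 3.82-fold higher, and Xbp1, a factor of the unfolded protein response, was 4.54-fold higher. Dnajb9, Dnajc3 and Herpud1, which the unfolded protein response also induces, were 2.62-fold lower, 2.68-fold lower and 2.12-fold lower. Ubiquitin ligases and deubiquitinases had 4 of 33 higher and 8 lower. Peli1, which restrains T cell activation, had 15259.7 and 3689, and Fbxo32, a FOXO target, was 3.82-fold lower. Rnf128, an anergy ligase, was 3.76-fold higher and Nedd4 was 3.73-fold higher. In the autophagy and lysosome list 3 of 32 were higher and 1 lower, with Gabarapl1 9.59-fold higher and Atg14 2.08-fold lower.

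Genes of cell survival went both ways. 7 of 16 members compared were at least 2-fold higher and 2 were lower, with a median of 0.69. Pmaip1, the killer protein NOXA, had 68.6 and 677, Bnip3, a mitophagy receptor, was 72.7-fold higher, and Bcl2l2, a protective member, was 8.70-fold higher with a median of 0.19 over its other probe sets. The killer Bcl2l11 and the protective Mcl1 were both lower, 2.18-fold lower and 2.16-fold lower. Among p53 targets 12 of 25 members compared were at least 2-fold higher and 8 were lower, with a median of 0.96. Cdkn1a, the cell cycle inhibitor p21, had 62.4 and 6164, Gadd45g was 18.7-fold higher and Perp was at least 7.35-fold higher. Btg2, an antiproliferative gene, and Sesn1, a stress sensor that restrains mTORC1, had 9925 and 8167 in naive and 1200.3 and 1048 in control effector cells. Genes of DNA methylation and chromatin were mixed, as 9 of 52 members compared were at least 2-fold higher and 10 were lower, with a median of -0.20, which is above 0 relative to the CD3 genes. Uhrf1, which copies DNA methylation at replication, was 27.4-fold higher, Ezh2, a histone H3 methyltransferase, was 5.87-fold higher, and Kmt2a and Kdm7a, which write and erase histone marks, were 2.72-fold lower and 3.78-fold lower.

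Cytoskeleton genes went both ways. 11 of 42 members compared were at least 2-fold higher and 6 were lower, with a median of -0.09, which is above 0 relative to the CD3 genes and on the values as deposited. Enah, an actin elongation factor, was at least 133-fold higher, with a median of 3.23 over its other probe sets, Fscn1, which bundles actin, was at least 20.5-fold higher, and Tubb6 was at least 24.4-fold higher, with medians of only 0.70 and 0.86 over their other probe sets. Evl, of the same family as Enah, had 10662 and 2368, Actn1, an actin crosslinker, had 10392 and 1425, and Flna was 3.90-fold lower. For matrix, ADAM and MMP genes, 11 of 30 members compared were at least 2-fold higher and 4 were lower, with a median of 0.30. Plod2 and P4ha2, which hydroxylate collagen and are known targets of hypoxia signalling, were at least 76.0-fold higher and 11.5-fold higher, Emilin2 had 50.6 and 8468, and Tgm2 had 59.8 and 9930.3. Plat, a plasminogen activator, was 3.47-fold lower. In the channel list 4 of 24 members compared were at least 2-fold higher and 5 were lower, with a median of -0.12, which is above 0 relative to the CD3 genes. Atp2b4, a calcium pump, was at least 20.9-fold higher and Kcnk5, a potassium channel, was at least 18.8-fold higher. Orai2, a subunit of the calcium entry channel, had 1649 and 178, and Kcnn4 was 2.46-fold lower. Among purine ectoenzymes and receptors, Entpd1, which removes phosphates from ATP outside the cell, was 6.66-fold higher, and Nt5e, which makes adenosine, was 2.97-fold lower, although its other probe sets had a median of 0.30.

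Several of the genes furthest apart were in no list. On the higher side, Ctla2a, a cathepsin inhibitor of activated T cells, had 156 and 11314. Syce2, known from meiotic chromosomes, had 166 and 8174. Cysltr1, the cysteinyl leukotriene receptor, was at least 52.0-fold higher with a median of 4.49 over its other probe sets, so receptors for 2 kinds of leukotriene, Cysltr1 and Ltb4r1, were both higher. Gpld1, a phospholipase that releases anchored proteins, was at least 73.3-fold higher, Ak4, a mitochondrial adenylate kinase, was at least 66.1-fold higher, Mgarp was at least 61.7-fold higher and Emp1 was 53.3-fold higher. On the lower side, Scg5, known from secretory granules of endocrine cells, had 4079.8 and 93.3. Ampd1, an AMP deaminase, was at least 21.4-fold lower, Slc16a5, of the monocarboxylate transporter family, was at least 21.2-fold lower, Rflnb was 21.5-fold lower and Ifit1bl1, of the same family as Ifit3, was at least 52.7-fold lower.

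Of the genes named above with other probe sets, a number were past 2-fold on the brightest one alone. Beside those already given, the other probe sets went the same way but by less than 2-fold in these cases. Among genes with higher signal in the control effector array, their median differences were 0.93 for Galnt3, 0.87 for Prdx4, 0.89 for Ltbp3, 0.79 for Rnf128, 0.72 for Psme3, 0.48 for Itgav, 0.47 for Tgfb1 and 0.76 for Emp1. Among genes with lower signal they were -0.75 for Axin2, -0.67 for Itgb3, -0.86 for Il6st, -0.70 for Kcnn4, -0.86 for Arntl, -0.93 for Kmt2a, -0.86 for Smad5, -0.90 for Trat1, -0.53 for Tapbp, -0.58 for Cd8a, -0.72 for Cd247, -0.25 for Bcl2l11, -0.47 for Herpud1 and -0.21 for Plat.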

How the data were processed

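RNA was labelled with biotin and read on Affymetrix mouse arrays, 1 array for each of 5 groups. The deposited values are intensity, a linear signal per probe set, made by the authors with GCOS and Affymetrix Expression Console, per the submitters' processing notes. The tool versions, like the algorithm, are not stated in the labels. The mean after trimming 2% was 500.003 on every array, a scaling to a target of 500. The 3' to 5' control ratio, a sign of RNA quality, was 0.832 to 0.918 for Gapdh and 1.26 to 1.45 for beta-actin.

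From these values, 64 control probe sets were left out, the 5 arrays were quantile normalized, signals under the 40th percentile (43.4) were raised to it, and log2 was taken. The platform annotation of 2016 gives 1 symbol for 34945 probe sets, several for 932 and none for 9160. The brightest probe set stood for a gene, and a gene under the floor on both sides was left out of the comparison. The 68 gene lists, with 3 more on cell cycle, glycolysis and lipid synthesis that are not described, held 1678 entries, of which 1521 matched the array, 9 by synonym. Members and lists were chosen with earlier results of these data known.

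Named genes were the 4 label markers, up to 4 members furthest higher and 4 furthest lower in each list, and the 20 furthest in each direction, with the higher signal at or above 150.5, and defining genes under 2-fold. For the 20 furthest, every probe set above the floor also had to go the same way, and predicted genes and the 3 lists not described were skipped. The rule gave 327 genes. Of the 168 with other probe sets above the floor, 157 had these go the same way in the median, 105 of them past 2-fold. Promoters came from RefSeq on GRCm38.p6. The procedure was tested on simulated data. Python 3.11.15, numpy 2.4.6 and pandas 2.3.3 were used.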

Additional observations from a re-analysis of the deposited data

Results flagged for a closer look

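Signals of B cell and macrophage markers stood out in the memory Th1 array, which is labelled as CD4 T cells and is outside the comparison described. Of 22 B cell markers, 19 were at least 2-fold higher in the memory than in the naive array. Of 31 macrophage and monocyte markers, 30 were higher, beside 12.6% of all genes. These are values of 1 array each.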

How the results depend on the processing

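No paired analysis was possible because each group has 1 array. The count of 2078 genes higher became 3169 with the floor at the 20th percentile, 6744 relative to the CD3 genes and 795 at 4-fold. The count of 1493 lower became 2521, 345 and 342. The 18 B cell genes lower became 11 with the floor at the 60th percentile. The 10 neutrophil genes lower became 3 with that floor, 6 relative to the CD3 genes and 6 at 4-fold. The 6 T cell identity genes lower became 1 and 1 in those last settings, the 17 resting genes of T cells 10 and 10, and the 20 shared resting genes 11 and 11. The gene Fkbp4, which encodes a chaperone, was past 2-fold higher on its brightest probe set and had -0.077 as the mean of all its probe sets. Of the 327 named genes, 38 fell under 2-fold with the mean of all probe sets, 54 relative to the CD3 genes, 24 with the floor at the 60th percentile and 12 with the values as deposited. The cause of these changes was not tested. Genes near the floor carry the least information. The counts without Ifng, Tbx21 or Gzmb and the sums without Ighm were chosen after the data were seen.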

Other observations

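Genes were also grouped by the stem of their symbol, a grouping chosen after the data were seen and read only as counts. There were 83 stems with at least 15 genes compared. Zinc finger genes named Zfp, most of them transcriptional repressors with KRAB domains or relatives of these, had 55 of 280 lower and 14 higher in the control effector array, with a median of -0.37. Surface antigens named Cd had 26 of 74 lower and 6 higher, and this stem holds B cell and myeloid markers. RhoGAP genes named Arhgap had 9 of 28 lower and 6 higher, and orphan receptors named Gpr had 8 of 25 lower and 4 higher. These medians are above 0 relative to the CD3 genes. On the other side, tetraspanins named Tspan had 6 of 15 higher and 3 lower, and nucleoporins named Nup had 5 of 18 higher and 0 lower, with a median of 0.47. The shares over all genes compared were 15.9% higher and 11.4% lower.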
